A study of Arabidopsis thaliana with 24 samples.

Results

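Transcripts of 10 tau glutathione transferase genes of Arabidopsis thaliana were followed through 24 seedling libraries. The genes are GSTU1 (AT2G29490), GSTU2 (AT2G29480), GSTU3 (AT2G29470), GSTU4 (AT2G29460), GSTU7 (AT2G29420), GSTU19 (AT1G78380), GSTU20 (AT1G78370), GSTU22 (AT1G78340), GSTU24 (AT1G17170) and GSTU25 (AT1G17180). They were chosen by locus from a table of 32678 loci, with measured values in view: GSTU24 was picked because brassinolide (BL) shifts it in opposite directions in the 2 genotypes at 7 days. They are 10 of 28 tau genes listed by locus, and all 10 had enough counts to be tested at both ages. The BL comparisons at 7 days are therefore given as a description, without p-values, and the tests of BL rest on the 24-day libraries, which the rule did not use although results of them were known.

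BL is the most active brassinosteroid, a steroid hormone of plant growth. The bri1-701 brl1 brl3 triple mutant has defects in BRI1, the main receptor of the hormone, and in the related receptors BRL1 and BRL3. The cpd mutant has a defect in CPD, a cytochrome P450 needed to make brassinosteroids, and keeps the receptors. Each genotype was sampled as 24-day and as 7-day seedlings, with BL or with no treatment, in 3 libraries for each of the 8 groups, and all groups carry mutations in the pathway, with no wild type used here. Sample labels write brl1-701 where the design text writes bri1-701, and the spelling of the design text is kept. The sources used name no cpd allele, BL dose or length of treatment.

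Glutathione transferases join the tripeptide glutathione to electrophilic molecules, which marks these for transport into the vacuole, and some of them carry or reduce reactive compounds. The tau class is specific to plants and is the largest class in Arabidopsis, with many members in tandem arrays that arose by local duplication. Tau genes are known as targets of the response to herbicides, safeners, oxidised lipids and other foreign or reactive chemicals, in part through TGA factors, which bind the TGACG core.

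The libraries held 17243503 to 20563151 counts at 24 days and 10180880 to 12531699 at 7 days. Replicates lay much closer together at 7 days, where the coefficient of variation beyond counting was 2.01%, against 15% at 24 days. Pairs of 7-day replicates differed little more than by counting error (chi-square per degree of freedom 1.13 to 1.51). Pairs at 24 days differed far more (6.38 to 59.1). The 7-day p-values may thus not measure variation between plants. The mutated genes fitted their labels: in untreated libraries of both ages BRI1 had 47.5 to 67.9 CPM (counts per 1000000 counts, after normalisation) in the triple mutant and 166 to 276 CPM in cpd, and CPD had 322 to 443 CPM in the triple mutant and 65.3 to 118 CPM in cpd. Leaf markers were high everywhere, with sums of 3580 to 5180 CPM over 6 genes. Of 10 root markers, 8 had at most 10 counts in every 7-day library, and COBL9 and TIP2-3 had 0 in all 12, which allows up to 0.295 CPM in a library. Most defining root transcripts were thus absent or near 0 in the 7-day libraries, which are labelled seedling.

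The 10 genes lie in 3 tandem clusters in the RefSeq TAIR10.1 assembly. GSTU7, GSTU4, GSTU3, GSTU2 and GSTU1 lie in this order on the minus strand of chromosome 2 between 12617936 and 12632538. GSTU22, GSTU20 and GSTU19 lie on the minus strand of chromosome 1 between 29472845 and 29488007, and GSTU24 and GSTU25 lie side by side on its plus strand between 5869543 and 5873124. Every one of them has 2 exons and codes for 217 to 227 residues. Coding identity among the 45 pairs was 54.1% to 85.5% (median 58.1%), highest for GSTU1 with GSTU2 at 85.5%, and 79.4% for GSTU24 with GSTU25. The sources used do not say how reads shared by such copies were treated, and the split of counts between close pairs is uncertain. GSTU2 overlaps AT2G29485 on the opposite strand over 849 bases, and GSTU7 overlaps AT2G29410 over 52 bases and the non-coding AT2G08340 over 636 bases. They do not say either whether strand was used, so counts of GSTU2 and GSTU7 may hold reads of those genes.

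The 250 bases before the annotated start are shown for 5 of the genes, read from the RefSeq TAIR10.1 genome at its own annotation. GSTU24 and GSTU25 are shown as the adjacent pair with the widest genotype difference of the BL effect at 7 days, GSTU19 and GSTU20 as adjacent genes with unlike differences between the untreated genotypes, and GSTU7 for its 3 TGA cores, a choice made after the motif counts were seen. Capitals mark TGACG or its reverse complement CGTCA. The window of GSTU24 is chr1:5869293-5869542 on the plus strand, that of GSTU25 is chr1:5871774-5872023 on the plus strand, that of GSTU19 is chr1:29488008-29488257, that of GSTU20 is chr1:29485390-29485639 and that of GSTU7 is chr2:12618900-12619149, the last 3 on the minus strand.
GSTU24: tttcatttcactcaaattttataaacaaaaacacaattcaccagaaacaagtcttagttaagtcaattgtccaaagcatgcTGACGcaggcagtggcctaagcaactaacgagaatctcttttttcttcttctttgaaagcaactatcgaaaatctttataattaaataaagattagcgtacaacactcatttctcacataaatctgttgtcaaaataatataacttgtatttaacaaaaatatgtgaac
GSTU25: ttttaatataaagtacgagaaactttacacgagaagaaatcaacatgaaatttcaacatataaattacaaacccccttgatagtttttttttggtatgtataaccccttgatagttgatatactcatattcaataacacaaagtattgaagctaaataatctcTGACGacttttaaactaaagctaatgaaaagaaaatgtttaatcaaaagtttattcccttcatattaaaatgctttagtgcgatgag
GSTU19: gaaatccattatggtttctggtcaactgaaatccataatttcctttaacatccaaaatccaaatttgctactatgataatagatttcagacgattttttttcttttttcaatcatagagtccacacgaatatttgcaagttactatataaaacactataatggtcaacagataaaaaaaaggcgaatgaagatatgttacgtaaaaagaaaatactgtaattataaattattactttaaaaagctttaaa
GSTU20: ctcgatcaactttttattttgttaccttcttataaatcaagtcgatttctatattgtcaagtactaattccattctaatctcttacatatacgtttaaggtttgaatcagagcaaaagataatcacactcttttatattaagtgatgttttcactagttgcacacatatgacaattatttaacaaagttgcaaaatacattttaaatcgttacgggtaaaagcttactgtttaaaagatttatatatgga
GSTU7: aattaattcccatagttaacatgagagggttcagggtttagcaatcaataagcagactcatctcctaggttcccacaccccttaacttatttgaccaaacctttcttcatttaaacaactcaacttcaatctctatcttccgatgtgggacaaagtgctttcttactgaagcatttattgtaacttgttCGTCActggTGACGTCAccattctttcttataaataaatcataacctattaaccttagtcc

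For 4 motifs, both strands were searched in a window from 250 bases before to 50 after the start, and positions count from the start, with -1 as the base before it. TGACG was found in 8 of the 10 windows, against 23.1% of the windows of 27443 genes. It starts at -169 in GSTU24, at -87 in GSTU25 and in GSTU22, at -105 in GSTU3, at -77 and -65 in GSTU1 and at -61, -52 and -49 in GSTU7, where the last 2 overlap. In GSTU19 and GSTU20 it lies after the start, at +30 and +29, outside the bases shown, and GSTU2 and GSTU4 have none. The W-box (TTGACC or TTGACT) was found in 7 of 10 windows, against 32.4% of all. CGTGTG or CGTGCG, the element bound by the brassinosteroid factor BZR1, was found in 1 of 10 windows, at -129 in GSTU19, against 8.2% of all, and the G-box CACGTG in 0 of 10, against 7.7%. These matches describe letters in a window and say nothing of binding.

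Levels of the genes differed widely. Averaged over the 8 groups and divided by exon length, GSTU19 stood highest at 286 CPM per kb, followed by GSTU4 at 123 and GSTU7 at 99.1 CPM per kb. GSTU3, GSTU1, GSTU20 and GSTU24 had 16, 13.8, 11.5 and 8.74 CPM per kb. GSTU2 had 5.78, GSTU22 had 1.4 and GSTU25 had 0.656 CPM per kb, and GSTU25 reached no more than 41 counts in any library. GSTU24 spanned the widest range of group means, 12.7-fold between the BL-treated 7-day triple mutant and BL-treated 24-day cpd, and GSTU7 the narrowest, 1.96-fold.

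**Figure D1:**
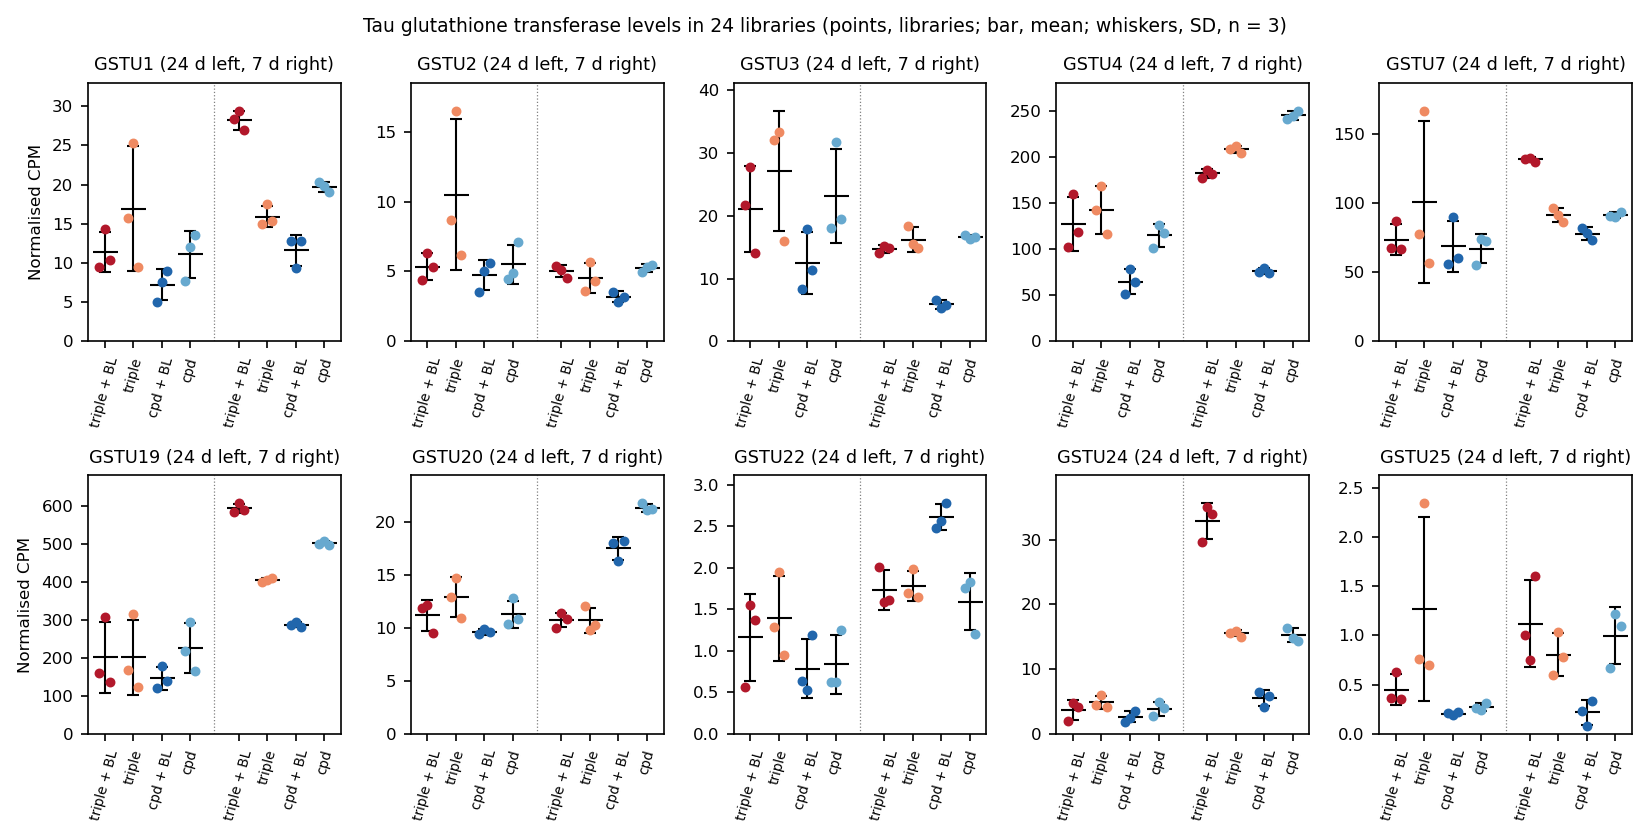
Normalised CPM (vertical axes, starting at 0, on a scale of their own for each gene) of the 10 genes in every library, with 24-day groups left and 7-day groups right of the dotted line, and triple mutant left of cpd; "+ BL" marks treatment, bars are means and whiskers SD (n = 3). GSTU24 stands at 29.7 to 35 CPM in the BL-treated 7-day triple mutant and at 1.83 to 16.4 CPM in the libraries of every other group.

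GSTU24, an enzyme known to conjugate the explosive trinitrotoluene, ranged over the 8 groups as follows. At 24 days it had 1.9, 4.81 and 4.15 CPM in the BL-treated triple mutant and 4.37, 6.02 and 4.1 CPM in the untreated triple mutant. In 24-day cpd it had 1.83, 2.43 and 3.5 CPM with BL and 2.76, 4.87 and 3.9 CPM without. The 24-day groups overlapped their neighbours in rank.

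At 7 days GSTU24 had 29.7, 35 and 33.9 CPM in the BL-treated triple mutant, against 15.5, 15.9 and 15 CPM in the untreated one. In 7-day cpd it had 6.5, 4.19 and 5.82 CPM with BL, against 16.4, 14.8 and 14.4 CPM without. The untreated groups of both genotypes overlapped, and BL-treated libraries lay above all of them in the triple mutant and below all of them in cpd. The log2 fold change with BL was 1.09 ± 0.08 (SE, n = 3 each) in the triple mutant and -1.47 ± 0.12 in cpd, a difference of 2.57 ± 0.14. These are the values that chose the gene.

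The other 9 genes divided into groups at 7 days. GSTU1 had 28.4, 29.4 and 27 CPM in the BL-treated triple mutant against 15, 17.5 and 15.3 CPM in the untreated one, and 12.8, 9.3 and 12.8 CPM in BL-treated cpd against 20.3, 19.8 and 19.1 CPM in untreated cpd. It was higher with BL in the triple mutant and lower with BL in cpd, with no overlap in either. GSTU19, a highly expressed and catalytically active member, had 585, 608 and 589 CPM in the BL-treated triple mutant against 400, 406 and 410 CPM in the untreated one, and 287, 293 and 280 CPM in BL-treated cpd against 501, 507 and 498 CPM in untreated cpd. GSTU7, implicated in tolerance of the herbicide methyl viologen, had 132, 133 and 130 CPM in the BL-treated triple mutant against 96.6, 91.7 and 86.5 CPM in the untreated one, and 82.4, 78.6 and 73.1 CPM in BL-treated cpd against 90.9, 89.7 and 93.9 CPM in untreated cpd. GSTU1, GSTU19 and GSTU7 thus moved in opposite directions in the 2 genotypes, as GSTU24 did, by log2 0.83 ± 0.08, 0.56 ± 0.02 and 0.53 ± 0.04 in the triple mutant and by -0.77 ± 0.09, -0.81 ± 0.03 and -0.23 ± 0.04 in cpd.

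GSTU4 was lower with BL in both genotypes and GSTU3 in cpd. GSTU4 had 177, 186 and 181 CPM in the BL-treated triple mutant against 209, 212 and 204 CPM in the untreated one (log2 -0.19 ± 0.03), and 75.1, 79.5 and 74.4 CPM in BL-treated cpd against 241, 244 and 250 CPM in untreated cpd (-1.68 ± 0.03). Both pairs of groups were apart, and the step in cpd was 3.21-fold. GSTU3 had 14 to 15.2 CPM in the BL-treated triple mutant against 14.8 to 18.4 CPM in the untreated one, and 5.27 to 6.58 CPM in BL-treated cpd against 16.3 to 17 CPM in untreated cpd (-1.5 ± 0.11). The triple mutant groups of GSTU3 overlapped.

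The remaining 4 genes had lower or steadier levels. GSTU20, known as an interactor of the jasmonate-conjugating enzyme FIN219, had 10, 11.4 and 10.8 CPM in the BL-treated triple mutant against 12.1, 9.82 and 10.3 CPM in the untreated one (log2 0 ± 0.11), and 18, 16.3 and 18.2 CPM in BL-treated cpd against 21.8, 21.1 and 21.2 CPM in untreated cpd (-0.29 ± 0.08). GSTU2 had 4.53 to 5.42 CPM in the BL-treated triple mutant against 3.57 to 5.67 CPM in the untreated one (0.17 ± 0.17), and 2.79 to 3.56 CPM in BL-treated cpd against 4.93 to 5.49 CPM in untreated cpd (-0.71 ± 0.17). Both overlapped in the triple mutant and were apart in cpd. GSTU22 was the exception in cpd, with 2.48 to 2.78 CPM with BL against 1.2 to 1.83 CPM without (0.69 ± 0.24), while its triple mutant groups overlapped. It no longer counts as higher with DESeq2, without untreated cpd replicate 3 or with the spread of the 24-day libraries assumed. GSTU25, which conjugates trinitrotoluene like its neighbour GSTU24, had 10, 8 and 16 counts in the BL-treated triple mutant against 7, 11 and 9 in the untreated one, and 3, 1 and 4 counts in BL-treated cpd against 8, 12 and 11 in untreated cpd (0.47 ± 0.38 in the triple mutant and -2.14 ± 0.52 in cpd).

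**Figure D2:**
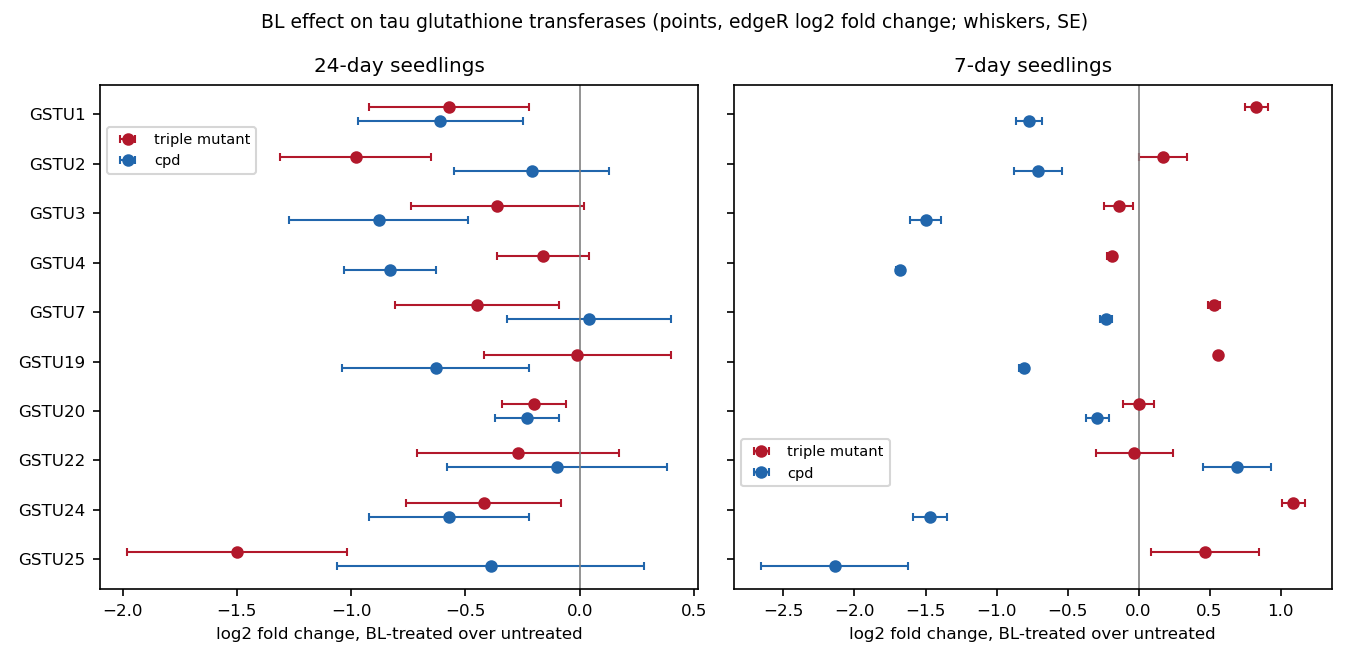
Log2 fold change of each gene, BL-treated over untreated (horizontal axes), at 24 days (left) and 7 days (right), with triple mutant above cpd; points are edgeR estimates and whiskers SE, from 3 libraries a group. At 7 days the triple mutant point of GSTU24 lies at 1.09 and the cpd point at -1.47, and at 24 days both lie below 0, at -0.42 and -0.57.

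Counted at an adjusted p under 0.05 (edgeR's quasi-likelihood test, Benjamini-Hochberg over all genes), 4 of 10 genes were higher and 1 lower with BL in the 7-day triple mutant, where 11.6% of 18378 genes tested were called higher and 11.2% lower. In 7-day cpd 1 of 10 was higher and 9 lower, where 27.8% of genes were called higher and 29.5% lower. The log2 change with BL, taken with its sign, was higher in the triple mutant than in cpd for 8 of 10 genes and lower for 0. Over all genes 22.4% and 18.9% were called so. These counts compare signed changes and not the size of the effect. The median log2 change of the 10 genes was 0.32 in the triple mutant and -0.79 in cpd, against 0 over all genes in both. With the spread of the 24-day libraries assumed, GSTU7, GSTU20 and GSTU22 in cpd and GSTU4, GSTU7 and GSTU19 in the triple mutant are no longer counted. Nor is GSTU2 for the difference between genotypes. Nothing is read from these counts, since the choice of genes used this contrast. PYK10, a root-enriched glucosidase gene that made up most of the root marker sum, was lower with BL in cpd, at 59.3 to 65 against 111 to 124 CPM. In the triple mutant its log2 change was 0.16 ± 0.04. NRT2.1, the only other root marker tested at 7 days, had -0.52 ± 0.27 in the triple mutant and -0.42 ± 0.29 in cpd and passed in neither. The sum of the 10 root markers was 123 to 133 CPM in the BL-treated triple mutant against 114 to 121 CPM in the untreated one. In cpd it was 61.1 to 65.9 CPM with BL against 113 to 126 CPM without. These sums follow PYK10 and do not stand for root markers in general. Leaf markers moved up with BL in both genotypes, all 6 of them, with sums of 4830 to 5030 against 4230 to 4400 CPM in the triple mutant and 5080 to 5180 against 4100 to 4150 CPM in cpd. The part of these shifts in the values above was not tested, and in bulk seedling RNA fewer cells of a type and less RNA per cell cannot be told apart.

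Without BL, 4 of the 10 genes were lower in the triple mutant than in cpd at 7 days. This comparison is not independent of the BL contrast, whose genotype difference holds the same untreated libraries with the opposite sign. A choice of genes by that contrast can favour genes lower in the untreated triple mutant. The adjusted p-values below therefore describe these genes and are no independent test. GSTU20 fell in the triple mutant, with 12.1, 9.82 and 10.3 CPM against 21.8, 21.1 and 21.2 CPM in cpd, a log2 difference of -0.99 ± 0.09 (adjusted p = 3.14e-17). Its neighbour GSTU19 fell by 0.31 ± 0.03 (adjusted p = 2.35e-21), GSTU1 fell by 0.31 ± 0.09 (adjusted p = 0.00423) and GSTU4 fell by 0.23 ± 0.03 (adjusted p = 4.7e-11). In each of these 4 the groups were apart. The count was 0 of 10 higher and 4 lower, where 13% of genes were called higher and 15.1% lower, with a median of -0.22 against 0 over all genes. GSTU24 had nearly equal levels, 15.5 ± 0.454 CPM in the triple mutant and 15.2 ± 1.06 CPM in cpd (SD, n = 3 each; log2 0.02 ± 0.10, given as a description). If the spread of the 24-day libraries is assumed for the 7-day counts, only the call of GSTU20 is kept among the 4 (adjusted p = 5.64e-05, range over its 11 alternatives 3.92e-23 to 5.64e-05).

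At 24 days GSTU4 fell with BL in cpd, and no other change with BL among the 10 genes passed the test in either genotype without a block. GSTU4 had 51.4, 78.3 and 64.9 CPM in BL-treated cpd, against 101, 126 and 118 CPM in untreated cpd, with no overlap, a log2 change of -0.83 ± 0.20 (adjusted p = 0.0244, range over 11 alternatives 0.000406 to 0.145). In the triple mutant GSTU4 had 102, 160 and 119 CPM with BL against 142, 168 and 116 CPM without, and these overlapped (-0.16 ± 0.20, adjusted p = 0.958). The call of GSTU4 in cpd is lost when untreated cpd replicate 2 (adjusted p = 0.0901) or 3 (0.0592), or BL-treated cpd replicate 1 (0.0993) or 3 (0.0711), is left out, and when replicate 3 is left out of all 24-day groups (0.145), while the log2 change stays between -0.99 and -0.68. In edgeR's test with the replicate number as a block, GSTU3 (-0.89, adjusted p = 0.0323, range 0.0323 to 0.49) and GSTU19 (-0.59, adjusted p = 0.0374, range 0.0374 to 0.711) also passed in cpd. The block is shared by the 24-day groups of both genotypes. Replicate numbers pair libraries within cpd, and pairing across genotypes is less certain. GSTU3 had 8.28, 17.9 and 11.3 CPM in BL-treated cpd against 18.1, 31.7 and 19.5 CPM in untreated cpd, close but without overlap. GSTU19 had 120, 179 and 139 CPM in BL-treated cpd against 217, 295 and 165 CPM in untreated cpd, with overlap. Both were lower with BL within every replicate number.

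In 24-day cpd 0 of 10 genes were higher and 1 lower (3 lower with the block), where 4.58% of 19731 genes tested were called higher and 5.16% lower. In either direction 15.6% of genes were called with the block and 9.74% without. The median of the 10 was -0.48, against 0 over all genes, and 9 of 10 changes were negative. In the 24-day triple mutant 0 of 10 were called in either direction, where 0% of genes were called higher and 0% lower by edgeR, with 753 genes at an unadjusted p under 0.05 and, by DESeq2, 0 called with 674 under 0.05. Of the 10 genes, 2 were under 0.05 unadjusted in edgeR's test: GSTU25, and GSTU2 at -0.98 ± 0.33 (adjusted p = 0.954), whose groups overlapped. All 10 changes there were negative, with a median of -0.39 against 0, and the largest was in GSTU25 (-1.5 ± 0.48, adjusted p = 0.954), which had 7, 11 and 7 counts with BL against 13, 41 and 14 without. Without untreated replicate 2, GSTU25 was -0.71 and GSTU7 and GSTU19 were above 0, at 0.13 and 0.47, and GSTU22 was 0.06 without BL-treated replicate 1. GSTU24 did not pass in either genotype, at -0.42 ± 0.34 (adjusted p = 0.954) in the triple mutant and -0.57 ± 0.35 (adjusted p = 0.353) in cpd, and the genotype difference of its BL effect was 0.15 ± 0.49 (adjusted p = 0.915). For that difference 0 of 10 genes were called without a block, where 1.62% of genes were called higher and 1.18% lower by edgeR. There 1 of 10 was at an unadjusted p under 0.05 (GSTU4, 0.66 ± 0.28), and DESeq2 called 0 of 10. EdgeR with the block called GSTU4 higher (0.66, adjusted p = 0.0268), where 6.29% of genes were called in either direction. Not every same-numbered pair of the 24-day groups reached r of 0.1 (lowest 0.08), which limits that call. For GSTU24 the SE of the BL effect was 0.34 to 0.35 at 24 days and 0.08 to 0.12 at 7 days, and whether the BL effect differs between ages was not tested.

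Untreated 24-day seedlings of the 2 genotypes differed most in GSTU25. It had 13, 41 and 14 counts in the triple mutant (0.758, 2.35 and 0.7 CPM), against 5, 5 and 6 counts in cpd (0.261, 0.241 and 0.312 CPM), with no overlap, a log2 difference of 2.21 ± 0.51 that did not pass edgeR's test (adjusted p = 0.0707). It passed with the replicate block (2.14, adjusted p = 0.0186) and with DESeq2 (2.26, adjusted p = 0.016), over a range of 0.016 to 0.226 in 11 alternatives, and it also passed without untreated triple mutant replicate 3 (2.51, adjusted p = 0.0188). Whether replicate numbers pair the untreated genotypes is less certain than for BL within a genotype. Without untreated triple mutant replicate 2, the library with 41 counts, the estimate was 1.42 (adjusted p = 0.223). GSTU2 had 8.69, 16.5 and 6.2 CPM in the triple mutant against 4.49, 4.87 and 7.13 CPM in cpd (0.94 ± 0.33, adjusted p = 0.165). It overlapped, and passed only without untreated triple mutant replicate 3 (1.22, adjusted p = 0.0423, range over 11 alternatives 0.0423 to 0.546). The count was 0 of 10 in either direction (1 higher with the block), where 0.725% of genes were called higher and 0.238% lower, with 2 of 10 at an unadjusted p under 0.05. With the block 6.41% of genes were called in either direction. The median of the 10 was 0.47, against -0.02 over all genes, and 9 of 10 differences were positive, GSTU19 being the exception at -0.15 ± 0.41. GSTU20 had 12.9, 14.7 and 10.9 CPM in the triple mutant against 10.4, 12.8 and 10.8 CPM in cpd (0.19 ± 0.14, adjusted p = 0.474), and whether this differs from its 7-day value was not tested.

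Replicate 2 stood high at 24 days across most of the genes. GSTU3, GSTU4, GSTU7, GSTU19 and GSTU20 each had their highest value in replicate 2 in all 4 groups, as 5.05% of 19731 genes did, and 31 of 40 combinations of gene and group peaked there. GSTU7 in the untreated triple mutant is the plainest case, with 77.7, 167 and 56.7 CPM. The root marker sum instead peaked in replicate 3 of each 24-day group, at 188 to 272 CPM, against 113 to 231 CPM in replicates 1 and 2. PYK10 alone, at 108 to 262 CPM in the 24-day libraries, made up most of that sum. The part of either shift in the 24-day results was not tested, and the block values above take replicate number into account.

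**Figure D3:**
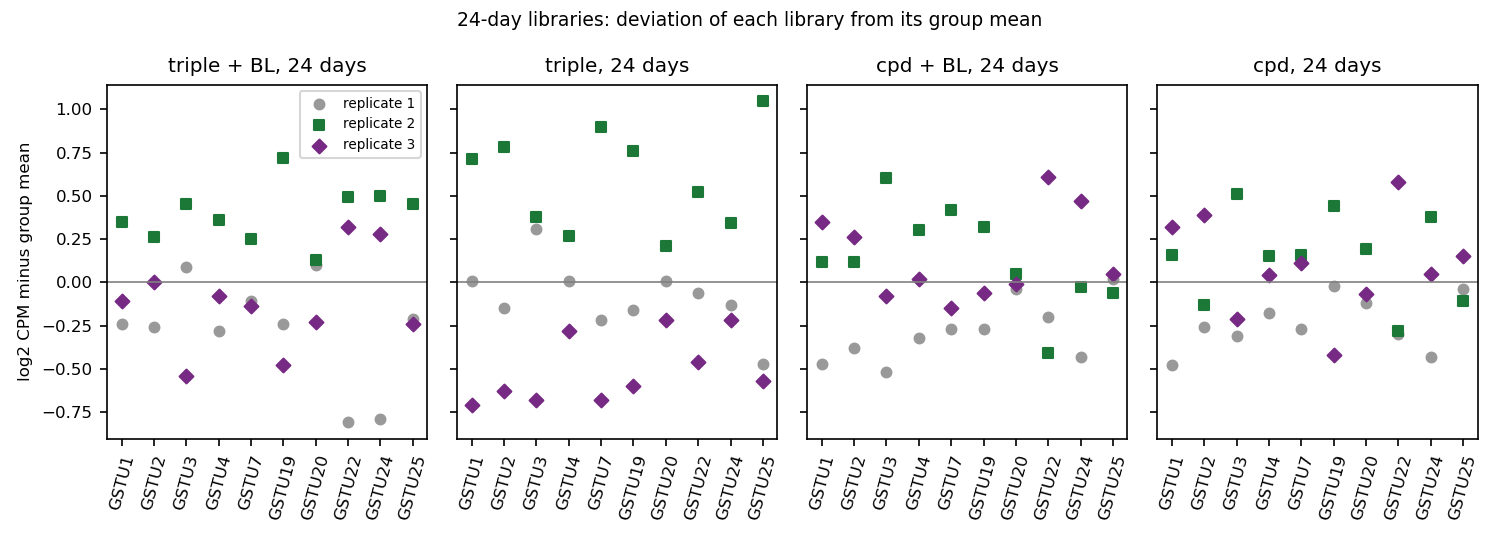
Deviation of each 24-day library from its group mean (vertical axis, log2 CPM) for the 10 genes, in 4 panels from BL-treated triple mutant to untreated cpd; markers stand for replicates 1, 2 and 3. Replicate 2 (squares) lies highest for GSTU3, GSTU4, GSTU7, GSTU19 and GSTU20 in all 4 panels.

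Age was compared in untreated seedlings in 1 fit of all 24 libraries, and age cannot be told apart from whatever else differed between the 2 sets of libraries. The 7-day libraries used are those that also served the BL contrast. GSTU24, whose own 7-day values served in its choice and which is therefore described without a test, had lower values at 24 days in both genotypes, with 4.37, 6.02 and 4.1 CPM at 24 days against 15.5, 15.9 and 15 CPM at 7 days in the triple mutant (log2 -1.68 ± 0.24), and 2.76, 4.87 and 3.9 CPM against 16.4, 14.8 and 14.4 CPM in cpd (-1.97 ± 0.25). GSTU19 and GSTU4 fell at 24 days in both, by 1.01 ± 0.31 and 0.55 ± 0.15 in the triple mutant and by 1.16 ± 0.31 and 1.09 ± 0.15 in cpd. GSTU2 rose at 24 days in the triple mutant (1.21 ± 0.28, adjusted p = 0.000733), with 0.07 ± 0.29 in cpd, and GSTU3 rose there too (0.73 ± 0.30, adjusted p = 0.0383), although its groups overlap and the call is lost without any of 4 single libraries, untreated triple mutant replicates 1 and 2 at 24 days and replicates 2 and 3 at 7 days (adjusted p up to 0.138). In cpd, GSTU1, GSTU20, GSTU22 and GSTU25 fell as well, by 0.83 ± 0.28, 0.91 ± 0.11, 0.94 ± 0.38 and 1.83 ± 0.53. The value of GSTU25 rests on few counts, 5, 5 and 6 at 24 days against 8, 12 and 11 at 7 days. GSTU22 had at most 24 counts in these cpd libraries, its groups overlap, and its call is lost without untreated cpd replicate 1 or 2 of either age (adjusted p up to 0.11). GSTU1's call is lost without untreated 24-day cpd replicate 1 (adjusted p = 0.0659).

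By count, 2 of 10 genes were higher and 3 lower at 24 days in the triple mutant, where 34.7% of 19935 genes were called higher and 34.4% lower. In cpd 0 of 10 were higher and 7 lower, where 34.8% and 34.9% of genes were called so. The shares of all genes are large, so the triple mutant's count is near them. Both counts include GSTU24, and the untreated 7-day libraries served the BL contrast in view when the genes were chosen. The counts therefore describe the genes, and nothing more is read from them. GSTU20 in the triple mutant had 0.26 ± 0.12 (adjusted p = 0.0562) and passed in 5 of 12 alternatives, RLE scaling and no filter among them (adjusted p 0.00549 to 0.213). GSTU7 did not pass, at 0.13 ± 0.27 in the triple mutant and -0.45 ± 0.27 in cpd, and without replicate 2 of the untreated 24-day triple mutant its value there turned to -0.42 (adjusted p = 0.0496). Of 5 root markers tested, 5 were higher at 24 days in the triple mutant and 2 in cpd, and their part in these values was not tested.

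Other genes of the same chemistry give the setting. They were listed with earlier results of these data known. Over all genes tested at 7 days, 11.6% were called higher and 11.2% lower with BL in the triple mutant. In 7-day cpd the shares were 27.8% and 29.5%. These calls and those of the lists rest on the small spread of the 7-day replicates. With the spread of the 24-day libraries assumed, 116 genes were called with BL in the triple mutant, against 4184, and 3800 in cpd, against 10541. The lists were not counted under that setting. In 7-day seedlings, genes of the xenobiotic and oxylipin response, which act on foreign and reactive compounds, divided by genotype: 10 of 13 tested were higher and 0 lower with BL in the triple mutant (median 0.29), and 1 of 13 was higher and 11 lower in cpd (median -1.38). Among them UGT73B4, a glucosyltransferase gene, changed by 0.47 ± 0.05 in the triple mutant and -3.41 ± 0.08 in cpd, NAC102, a transcription factor gene, by 0.19 ± 0.03 and -1.41 ± 0.03, and OPR1, an oxophytodienoate reductase gene, by 0.66 ± 0.03 and -0.45 ± 0.03. Of 12 tested genes of glutathione synthesis, recycling and conjugate transport, 4 were higher and 2 lower with BL in the triple mutant, and 2 higher and 9 lower in cpd. GSH1 and GSH2, the enzymes that make glutathione, had changes of 0.04 ± 0.02 and 0.03 ± 0.03 in the triple mutant, where they did not pass, and fell by 0.68 ± 0.02 and 0.98 ± 0.03 in cpd. ABCC3, a vacuolar transporter of conjugates, changed by 0.38 ± 0.03 in the triple mutant and -0.86 ± 0.03 in cpd.

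The other tau genes and the phi class, a second large class of plant glutathione transferases, were lower with BL in 7-day cpd and mixed in the triple mutant. Of 12 other tau genes tested, 2 were higher and 3 lower in the triple mutant, and 0 higher and 10 lower in cpd, with medians of 0.04 and -0.49. Of 8 phi genes tested, 2 were higher and 5 lower in the triple mutant, and 0 higher and 7 lower in cpd, with medians of -0.16 and -0.44. GSTU17 fell in both genotypes (-0.56 ± 0.03 in the triple mutant and -0.58 ± 0.03 in cpd), and so did GSTF7 (-0.42 ± 0.03 and -0.64 ± 0.02). Of 8 genes for TGA factors and their partner SCL14, 0 were higher and 1 lower in the triple mutant, and 0 higher and 3 lower in cpd. TGA1 was the one in common (-0.35 ± 0.05 and -0.79 ± 0.05), and TGA7 had the largest value in cpd (-0.87 ± 0.12).

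**Figure D4:**
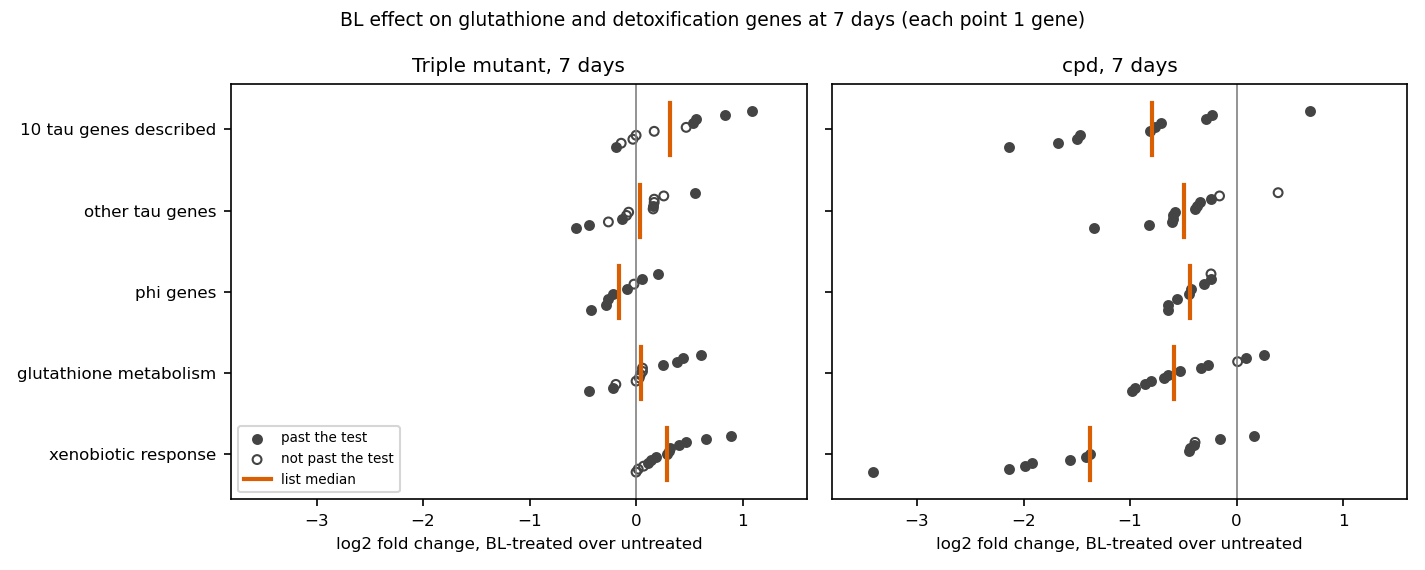
Log2 fold change of single genes with BL at 7 days (horizontal axes, BL-treated over untreated) in the triple mutant (left) and cpd (right), by gene list; filled points passed edgeR's test at an adjusted p under 0.05 and orange bars are list medians. The median of the xenobiotic response list lies at 0.29 in the triple mutant and at -1.38 in cpd, and those of the 10 tau genes at 0.32 and -0.79.

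Without BL at 7 days, where 13% of all genes were called higher and 15.1% lower in the triple mutant, the lists gave 0 higher and 3 lower of 12 other tau genes, 1 higher and 4 lower of 8 phi genes, 0 higher and 6 lower of 12 glutathione genes and 0 higher and 4 lower of 13 xenobiotic response genes. Of the 8 genes for TGA factors and SCL14, 2 were higher and 0 lower (SCL14, 0.14 ± 0.04, and TGA6, 0.26 ± 0.10). GSTU11 had the largest named difference (-1.04 ± 0.06, adjusted p = 1.59e-34). That p-value rests on the small spread of the 7-day replicates. With the spread of the 24-day libraries assumed, 509 genes were called between the untreated genotypes at 7 days, against 5169. At 24 days with BL, UGT73B4 (-1.73 ± 0.25, adjusted p = 0.00133), UGT73B5 (-1.14 ± 0.19, adjusted p = 0.00291) and AKR4C9, an aldo-keto reductase gene (-1.7 ± 0.30, adjusted p = 0.00438), fell in cpd, which makes 0 higher and 3 lower of 13 genes of that list (6 lower with the block). Other tau genes gave 0 higher and 2 lower of 16 (GSTU16, -0.91 ± 0.20, and GSTU27, -0.74 ± 0.16), phi genes 0 higher and 1 lower of 12, and glutathione genes 0 higher and 2 lower of 12 (4 lower with the block). Over all genes in 24-day cpd 4.58% were called higher and 5.16% lower with BL, and 15.6% in either direction with the block. With BL in the 24-day triple mutant, edgeR called 0 genes of these lists, with 0 at an unadjusted p under 0.05, and DESeq2 called 0 genes in all. Without BL at 24 days, GSTU13 was the sole gene of these lists past the test, higher in the triple mutant (0.74 ± 0.14, adjusted p = 0.0314), and with the block 3 other tau, 3 phi, 2 glutathione and 1 xenobiotic response genes were higher and 0 lower. Over all genes 0.725% were called higher and 0.238% lower, and 6.41% in either direction with the block. With age in untreated seedlings, 0 higher and 12 lower of 13 xenobiotic response genes were called in the triple mutant and 0 higher and 13 lower in cpd, and of 16 other tau genes 7 were higher and 2 lower in the triple mutant and 7 higher and 4 lower in cpd. Over all genes 34.7% were called higher and 34.4% lower in the triple mutant, and 34.8% and 34.9% in cpd.

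The genes most like GSTU24 across the 24 libraries were ranked by Pearson r of log2 CPM after each age was centred on its own mean, among 14772 genes with a mean of at least 5 CPM. Libraries of 1 group and 1 age share their sources, and r is given as a description. The first 5 were UGT74E2, a glucosyltransferase gene (r = 0.938), UGT75B1, another of that family (0.915), ZIFL1, a transporter gene (0.911), CYP710A1, a sterol desaturase gene (0.907), and NFXL1, a zinc finger protein gene (0.906). UGT74E2 averaged 38.9 CPM in the BL-treated 7-day triple mutant against 21.1 CPM in the untreated one, and 4.54 CPM in BL-treated 7-day cpd against 20 CPM in untreated cpd. Among the other tau genes described, GSTU1 came nearest (r = 0.846, rank 44), followed by GSTU4 (0.741) and GSTU19 (0.72), and GSTU20 had r = -0.307. GSTU22 and GSTU25 lay below 5 CPM and were not ranked.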

How the data were processed

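Messenger RNA of Arabidopsis thaliana seedlings was measured in 24 libraries, 3 in each of 8 groups. Per the labels, Trizol was used for extraction and an Illumina TruSeq kit for the libraries. The authors deposited whole-number read counts per locus in 1 table, with 0 of the library columns unused. Trimmomatic 0.36, HISAT2 2.1.0, HTSeq 0.9.1 and build TAIR10 are named in the submitters' processing notes, without settings or strand. Of 32678 loci, 31912 are in the RefSeq TAIR10.1 annotation, a later release of that build, which gave symbols, exon lengths, positions and upstream sequence.

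Counts were normalised with TMM and tested with edgeR 4.0.16 (R 4.3.3) in the quasi-likelihood test, after filterByExpr with a minimum count of 10, at a threshold of 0.05 on Benjamini-Hochberg adjusted p over every gene tested. Each age was fitted with its 12 libraries, and age in 1 fit of all 24. CPM share 1 TMM scale over 24 libraries. SE is the log2 change over the square root of F. DESeq2 1.42.0, limma 3.58.1 (voom), RLE scaling, no filter, a replicate block and leaving out libraries were alternatives. The block is an effect of replicate number shared by all groups of a fit. Same-numbered libraries deviated together at 24 days, with r = 0.23, 0.25 and 0.41 for cpd with and without BL. For the triple mutant with and without BL r was 0.36, 0.42 and 0.62. Within each genotype every untreated library had its highest r with its own number, so the numbers pair those samples, as found from the data. For the untreated genotypes r was 0.13, 0.24 and 0.37, all above 0.1. Replicate 2 of untreated cpd, however, had r = 0.28 with another number of the untreated triple mutant. Pairing of the untreated genotypes is therefore less certain. At 7 days r was -0.04 to 0.04 and the numbers do not pair libraries.

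A count of 0 allows up to 3 counts, or 0.146 to 0.174 CPM in a 24-day library and 0.239 to 0.295 CPM in a 7-day one; such floors cover counting error only. Whether replicate libraries stand for different plants is not stated, and the spread behind each p-value may be technical. The 10 genes and all lists were chosen with earlier results of these data known. Named genes are the 10 in every comparison, up to 3 genes per list and comparison with the smallest adjusted p among those past the test, and the 5 genes most like GSTU24; other genes are named for a role or a count and were chosen after their values were seen. Protein sequences were planned and are not used here.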

Additional observations from a re-analysis of the deposited data

Results flagged for a closer look

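The effect of BL at 7 days differed between the triple mutant and cpd past edgeR's test for 8 of the 10 genes. With the spread of the 24-day libraries assumed, 7 were called and GSTU2 was not. The log2 difference (triple mutant minus cpd) was 2.62 ± 0.65 (SE) for GSTU25, 2.57 ± 0.14 for GSTU24, 1.6 ± 0.13 for GSTU1, 1.49 ± 0.05 for GSTU4, 1.37 ± 0.04 for GSTU19, 1.35 ± 0.15 for GSTU3, 0.88 ± 0.24 for GSTU2 and 0.76 ± 0.06 for GSTU7. GSTU25 rests on 1 to 16 counts per library. The genes were chosen from this contrast, so these values describe it and are no test of it.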

How the results depend on the processing

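At 7 days the counts called among the 10 genes were within 1.5 times under RLE scaling, no filter, DESeq2, the replicate block and single libraries left out. Assuming the spread of the 24-day libraries there left 2 of 5 calls with BL in the triple mutant and 1 of 4 between untreated genotypes, and over all genes 116 calls against 4184 with BL in the triple mutant, 3800 against 10541 with BL in cpd, 1614 against 7587 for their difference and 509 against 5169 between untreated genotypes. Without single libraries the counts of 5 and 4 stayed. At 24 days, BL in cpd gave 3 genes with the replicate block, 0 without replicate 3 of every group, and 0 to 1 without single libraries. The untreated genotypes gave 1 gene with the replicate block, 1 with DESeq2, and 0 to 2 without single libraries. For the genotype difference of the BL effect at 24 days, where not every same-numbered pair reached r of 0.1 (lowest 0.08), the replicate block gave 1 gene, GSTU4 (0.66, adjusted p = 0.0268, range over 17 alternatives 0.0268 to 0.512). The block changed no other count of the 10 genes. Over all genes at 24 days, edgeR without a block, with it, and DESeq2 called 1921, 3083 and 2512 with BL in cpd, 553, 1241 and 1075 for the genotype difference of that effect, and 190, 1265 and 1061 between untreated genotypes; in the 7-day triple mutant edgeR called 4184 and DESeq2 2519. GSTU7 with age in the untreated triple mutant was 0.13, and -0.42 to 0.43 without single libraries, negative and past the test without replicate 2 at 24 days. The cause was not tested. Scaling to raw totals in place of TMM moved 13 of 80 group means by more than 1 SD. Depth limits GSTU25 and GSTU22, with at most 41 and 34 counts per library.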
